A study of Mus musculus with 23 samples.

Results

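The cytochrome P450 genes of the mouse were followed in the colon of C57BL/6J mice, a common inbred laboratory strain, that drank dextran sulfate sodium (DSS), a sugar polymer carrying sulfate groups that damages the lining of the gut. Members were the probe sets whose platform symbol was Cyp followed by a digit, which gave 102 of 45037 probe sets other than controls. Of these, 98 carried a single symbol and stood for 73 of the 18201 genes named that way, and 4 carried several symbols. Signals of 35 of the 73 genes reached the level needed for a test. Per the labels, the animals were 12 to 14 weeks old and came in separate cohorts, so each array is a different mouse. The 5 mice of day 0 were untreated. The 6 mice each of days 2, 4 and 6 had drunk water with 3% DSS for that many days. No genetic change was carried by any group. The sex of the mice, the piece of colon and the date of each hybridisation do not appear in the labels, so day and processing batch cannot be told apart.

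Cytochrome P450 enzymes are heme proteins of the endoplasmic reticulum and mitochondria that insert oxygen into small lipophilic molecules, with electrons from a reductase. Families 1 to 3 act mainly on drugs, dietary compounds, steroids and arachidonic acid, family 4 hydroxylates fatty acids and eicosanoids such as leukotriene B4, and the higher families make or remove sterols, bile acids, retinoic acid and vitamin D. In the gut, the absorptive epithelium holds many of the drug and fatty acid enzymes, while stromal and immune cells hold others.

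Start regions of 4 members are shown because the results turn on how the members of the Cyp2c cluster differ and on the largest rise from day 0 to day 6, that of Cyp1b1. The sequences are the 150 bases before the annotated start, written 5′ to 3′ on the gene's strand, from RefSeq on GRCm38.p6. Capitals mark CAAAGTCCA, an element that the hepatocyte nuclear factor Hnf4a binds, in the Cyp2c genes, and GCGTG, the core of the element bound by the aryl hydrocarbon receptor Ahr with Arnt, in Cyp1b1, where the match lay on the other strand. Cyp2c55 lies at chr19:39006869-39007018 (+), Cyp2c65 at chr19:39060856-39061005 (+), Cyp2c68 at chr19:39741102-39741251 (-) and Cyp1b1 at chr17:79715062-79715211 (-).
Cyp2c55: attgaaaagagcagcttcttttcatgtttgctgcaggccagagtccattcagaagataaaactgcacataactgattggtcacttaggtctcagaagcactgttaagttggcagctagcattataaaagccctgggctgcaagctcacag
Cyp2c65: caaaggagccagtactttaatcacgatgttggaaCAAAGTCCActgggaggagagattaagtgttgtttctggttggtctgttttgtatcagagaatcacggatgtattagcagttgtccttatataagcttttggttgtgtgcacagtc
Cyp2c68: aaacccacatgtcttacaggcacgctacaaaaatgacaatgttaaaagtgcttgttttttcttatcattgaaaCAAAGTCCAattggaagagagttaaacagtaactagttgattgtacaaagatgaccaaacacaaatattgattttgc
Cyp1b1: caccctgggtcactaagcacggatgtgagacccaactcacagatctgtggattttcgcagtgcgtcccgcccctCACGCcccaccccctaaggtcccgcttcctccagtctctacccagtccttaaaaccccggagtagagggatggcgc
A promoter window, from 250 bases before to 50 after the start, was found for 28 of the 35 tested genes. Cyp2c65 and Cyp2c68 were the 2 of 28 with CAAAGTCCA, a sequence present on either strand in 0.475% of all 32851 promoter windows, and Cyp2c55 had no match. GCGTG occurred in 9 of 28 windows against 32.4% of all windows, and its longer form TTGCGTG in 0 of 28 against 1.16%. Cyp2c68 was among the 9, with a match on the other strand at -130 to -126 that is left in lower case above. TATAAA, the TATA box, occurred in 9 of 28 windows against 13.6%. The Cdx letters TTTATNG were found in 4 and their form TTTATTG in 1, against 10.9% and 4.60% of all windows, and the Gata letters AGATAA in 4 against 11.2%. TTTATTG is contained in TTTATNG, as is GCGTG in TTGCGTG. No window held the consensus letters searched for NF-kappaB, Hnf1 or the paired element of nuclear receptors. Between the windows of the 4 Cyp2c genes that had one, 67.5% to 74.1% of aligned bases were identical. A match is a description of letters, and binding was not measured.

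Signals are linear intensities that the authors scaled to a trimmed mean of 500 on each array, with array medians between 97.3 and 121. Changes are differences between days on the log2(signal + 16) scale with their SE, from limma with Benjamini-Hochberg adjustment over 12464 genes, and the limit for a call was an adjusted p of 0.05. In linear folds this scale understates the change of dim genes. Colon epithelium markers were present on every array, with a summed signal of 20 markers of 285834 to 308060 at day 0 and 225037 to 288225 at day 6, and 6 of the 20 fell by day 6. Of 11 neutrophil markers listed, 9 were on the annotation and only 3 reached the level for a test, which these 3 could do through the day 6 arrays alone, and these 3 rose at day 6. At day 6, 9 of 10 monocyte and macrophage and 10 of 10 fibroblast markers rose. Some arrays stood apart for RNA of neighbouring tissue. Pancreas markers summed to 106277 on day 2 mouse 6 and 29600 on day 6 mouse 1, against a day 0 median of 11293, and squamous markers summed to 1115 on day 2 mouse 8 and 1352 on day 4 mouse 8, against 11918. Control transcripts also moved with the day: the mean log2 level of hybridisation controls was 11.35 to 11.51 at day 0 and 10.68 to 11.14 at day 6. Signs of RNA quality moved too, with no overlap between days 0 and 4: the log2 ratio of 3′ to 5′ probe sets for actin was 0.40 to 0.45 at day 0, 0.53 to 0.70 at day 4 and 0.48 to 0.59 at day 6, and for Gapdh -0.46 to -0.33, -0.27 to -0.18 and -0.30 to -0.19. The part of these 3′ to 5′ ratios in the changes of days 4 and 6 was not tested. In whole colon, fewer cells of a type and less RNA per cell cannot be told apart.

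The 38 genes under the signal limit were above the median of their own array on at most 4 of 23 arrays. They included most genes of steroid hormone synthesis (Cyp11a1, Cyp11b1, Cyp11b2, Cyp17a1, Cyp21a1), of classical bile acid synthesis (Cyp7a1, Cyp8b1) and of vitamin D activation and breakdown (Cyp2r1, Cyp27b1, Cyp24a1), and the brain cholesterol hydroxylase Cyp46a1. Also in this group were the classical Ahr target genes Cyp1a1 and Cyp1a2, the retinoic acid hydroxylase Cyp26a1, and the drug-inducible Cyp2b10, Cyp2c29 and Cyp3a11. The rest were Cyp2a12, Cyp2b9, Cyp2b13, Cyp2c23, Cyp2c37, Cyp2c39, Cyp2c50, Cyp2c70, Cyp2d40, Cyp2g1, Cyp2j5, Cyp2j11, Cyp2j13, Cyp2u1, Cyp3a16, Cyp4a12a, Cyp4a14, Cyp4a31, Cyp4f15, Cyp4f41-ps and Cyp4x1. In a limma fit without the limit, 0 of the 38 passed in any comparison. At an unadjusted p under 0.05, between 2 and 4 of the 38 did so, depending on the comparison, and the lowest adjusted p was 0.0597.

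Between day 0 and day 2 no tested P450 gene passed, while 3 of 35 had an unadjusted p under 0.05 and 0.0802% of all genes passed. By day 4, 7 of 35 had changed, 3 upward and 4 downward, where 16.4% of all genes had changed, 12.1% upward and 4.32% downward. By day 6, 13 of 35 had changed, 4 upward and 9 downward, where the shares of all genes were 32.4%, 18.1% and 14.3%. The share of P450 genes that passed at day 6, 37.1%, was near that background. The median change of the 35 genes was -0.09 at day 6 against 0.02 for all genes. From day 2 to day 4, 1 rose and 8 fell (all genes: 9.43% and 4.09%), and from day 4 to day 6, 6 rose and 6 fell (9.09% and 13.7%). The days did not overlap for 4 of the 35 genes between days 0 and 4 (10.1% of all genes), 9 between days 0 and 6 (16.6%), 2 between days 2 and 4 (5.29%) and 5 between days 4 and 6 (7.63%). The 3 comparisons with day 0 share its 5 mice. From day 2 to day 4 and from day 4 to day 6, 13.5% and 22.8% of all genes passed. Among the genes that passed the signal limit, Cyp1b1, Cyp4f39 and Cyp3a44 had no day 0 array above the median, and Cyp4f18, Cyp2b19 and Cyp2j9 had 1 of 5. They were tested because they were higher later, so their p-values and gaps between days, like these counts, are descriptions.

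**Figure D1:**
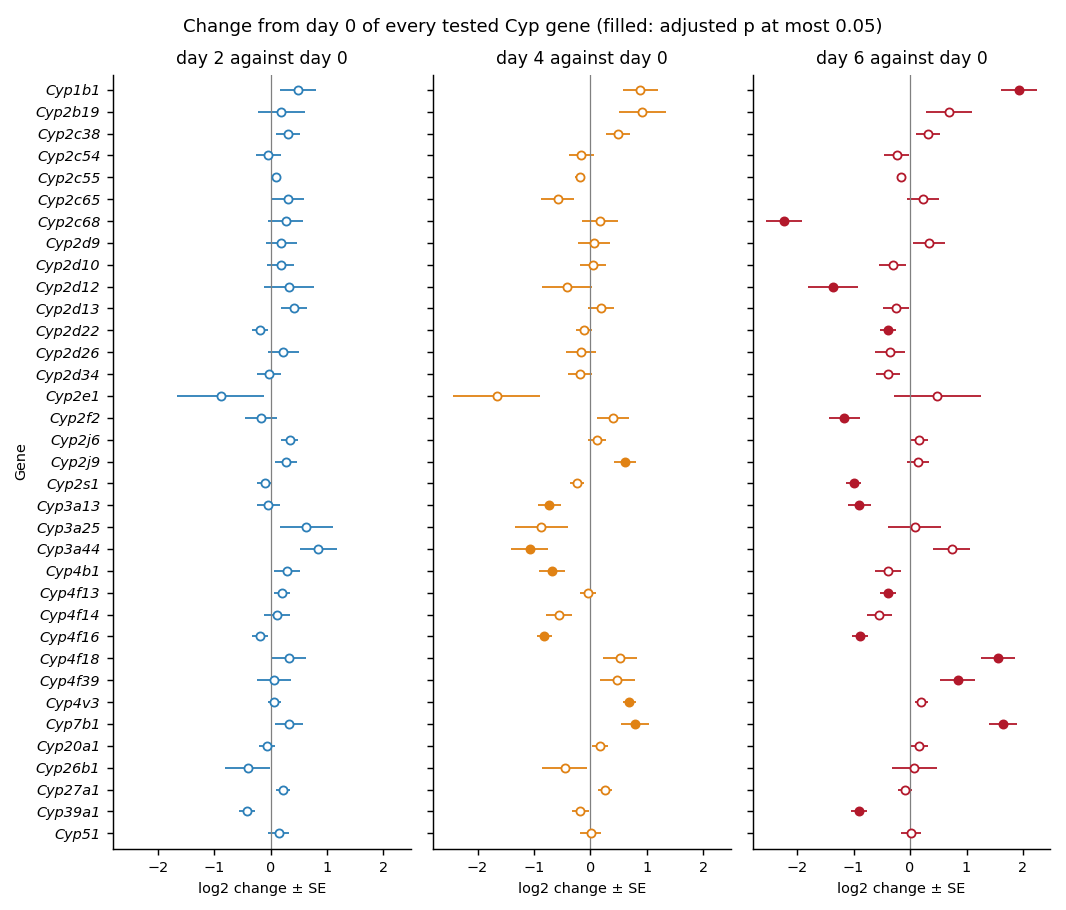
Change of each of the 35 tested Cyp genes from day 0 to day 2, day 4 and day 6 (x axis, log2 change of signal + 16 with its SE; 5 arrays at day 0 and 6 at each later day), with genes in order of family down the y axis. Filled points passed the test: 0 genes at day 2, 7 at day 4 and 13 at day 6, of which 9 lie below 0.

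Among families 1 to 3, which supply 22 of the 35 tested genes, 1 rose and 6 fell by day 6, or 4.55% and 27.3%, where 18.1% and 14.3% of all genes did. The Cyp2c cluster split. Cyp2c68 fell at day 6 and not before, Cyp2c65 had a low at day 4, and Cyp2c55, an arachidonic acid oxygenase of the colon, passed only from day 2 to day 4. Cyp2c38 and Cyp2c54 passed in no comparison. Cyp2c65 was read on a probe set of a type that can match more than 1 gene, so its signal may include relatives. On the 5 mice of day 0, Cyp2c68 had signals of 2529, 3916, 4051, 3789 and 2561. The lowest, median and highest signals were 2809, 4167 and 4499 at day 2, 2992, 4057 and 4311 at day 4, and 351, 596 and 1671 at day 6. Every day 6 mouse lay below every mouse of the other days. The change of Cyp2c68 from day 0 to day 6 was -2.23 ± 0.32 (adjusted p = 1.16e-05), and from day 4 to day 6 it was -2.41 ± 0.30 (adjusted p = 1.16e-05). The 6 mice of day 6 differed widely, with 3 between 351 and 387 and the other 3 at 805, 1547 and 1671.

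Cyp2c55, of the same cluster, had the signals 24359, 23683, 24487, 22096 and 24289 at day 0. At day 6 its lowest, median and highest signals were 17306, 21715 and 25826, which overlapped day 0, and the change of -0.16 ± 0.08 did not pass (adjusted p = 0.166). Its only passing difference was a fall of -0.28 ± 0.08 from day 2 to day 4 (adjusted p = 0.0275), when the 6 signals went from 23520 to 26951 down to 19398 to 23425 without overlap. That call was lost when any of 5 single arrays was left out (day 2 mouse 7 or 17; day 4 mouse 1, 3 or 4), with adjusted p up to 0.0705. Hnf4a, the factor whose element was searched in these start regions, fell by 0.35 ± 0.09 by day 6 (adjusted p = 0.0035) and was taken outside the naming rule. Cyp2c65, which holds the element as Cyp2c68 does, changed by 0.23 from day 0 to day 6 and did not pass. A part of Hnf4a in these changes was not tested.

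In the Cyp2d subfamily, the mouse relatives of the human drug enzyme CYP2D6, 7 genes were tested and 2 fell by day 6 (14.3% of all genes). Cyp2d12 had day 0 signals of 316, 474, 781, 516 and 340, and at day 6 a lowest, median and highest of 57.8, 203 and 299. The day 6 mice all lay below the day 0 mice, at a change of -1.37 ± 0.44 (adjusted p = 0.02), but the day 4 mice spanned 75.5 to 851 and overlapped both. Without day 0 mouse 3 or day 6 mouse 21 the Cyp2d12 call was lost (adjusted p up to 0.0639). Cyp2d22 went from 430 ± 70 (SD, n = 5) to 324 ± 56.4 (SD, n = 6), a change of -0.40 ± 0.14 (adjusted p = 0.0309) with overlapping mice, which was lost without day 0 mouse 2, 3 or 4 or day 6 mouse 4 or 21 (adjusted p up to 0.104). A further probe set of Cyp2d22, fitted on its own, had a change of -0.42 ± 0.13 (adjusted p = 0.0176), but it also rose by 0.46 ± 0.12 from day 2 to day 4 (adjusted p = 0.0177) and fell by 0.64 ± 0.12 from day 4 to day 6 (adjusted p = 0.000863), where the first probe set gave 0.08 ± 0.13 and -0.28 ± 0.13 and did not pass. Cyp2d34, the member on which the subfamily's highest mean was read, went from 2133 ± 295 (SD, n = 5) to 1659 ± 425 (SD, n = 6) by day 6, a change of -0.39 ± 0.21 (adjusted p = 0.171). Cyp2d9, Cyp2d10, Cyp2d13 (annotated as a transcribed pseudogene) and Cyp2d26 passed in no comparison. The Cyp2d13 probe set with the lower mean, a type shared among transcripts, did pass at day 6, at -1.17 ± 0.28 (adjusted p = 0.00296). That probe set also passed from day 4 to day 6, at -0.91 ± 0.27 (adjusted p = 0.0203). These genes are close copies of each other, so probes may pick up more than 1 of them.

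Cyp2s1, an enzyme of surface epithelia that can oxidise retinoic acid, fell late. Its day 0 signals were 3119, 2901, 3016, 2464 and 2919. The lowest, median and highest were 2332, 2646 and 3126 at day 2, 2174, 2350 and 2875 at day 4, and 1021, 1429 and 1823 at day 6. All 6 mice of day 6 lay below all others. From day 0 to day 6 the level changed 0.499-fold (SE 0.13 on the log2 scale, adjusted p = 2.51e-06) and from day 4 to day 6 by -0.76 ± 0.12 (adjusted p = 8.29e-05), and no single array decided either call.

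Cyp2f2, known from lung club cells, where it activates naphthalene, had a like time course. It had day 0 signals of 663, 1060, 816, 775 and 631, and a lowest, median and highest of 879, 995 and 1346 at day 4 and 181, 337 and 676 at day 6. The day 6 mice lay below all day 4 mice and overlapped day 0. The change was -1.56 ± 0.27 from day 4 to day 6 (adjusted p = 0.000187) and -1.17 ± 0.28 from day 0 to day 6 (adjusted p = 0.00249). Beside these falls, the colon epithelium markers had a median change of -0.15 at day 6, with Aqp8, a water channel of surface colonocytes, at -1.23, Slc26a3, a chloride exchanger, at -0.74 and Vil1, a brush border protein, at -0.18. The mean log2 level of these markers was 13.35 at day 4 and 13.34 at day 6. Aqp8 was at -1.11 by day 4. From day 4 to day 6 Slc26a3 changed by -0.75 and Krt20, also in the list, by 0.61. With the colon epithelium level as a covariate, the day 6 calls of Cyp2s1, Cyp2f2, Cyp2c68, Cyp39a1, Cyp3a13 and Cyp4f16 were kept. Those of Cyp2d12, Cyp2d22 and Cyp4f13 were lost. Such a fit cannot tell fewer cells from less RNA per cell, and the part of epithelial loss was not tested.

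**Figure D2:**
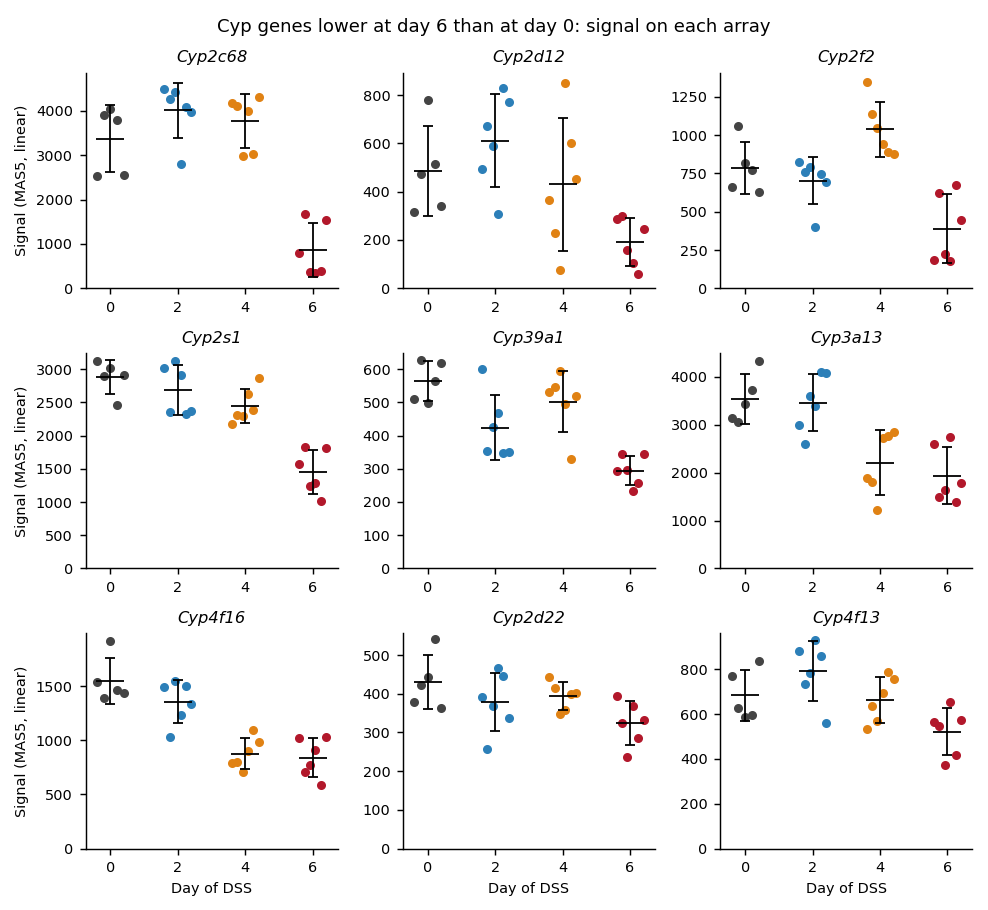
Signal on each array (y axis, linear MAS5 units) by day of DSS (x axis) for the 9 Cyp genes that fell from day 0 to day 6; points are mice, and horizontal bars with whiskers are the mean ± SD of 5 mice at day 0 and 6 at each later day. Cyp2c68, Cyp2s1, Cyp39a1 and Cyp2f2 drop from day 4 to day 6, whereas Cyp3a13 and Cyp4f16 are already low at day 4.

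The 3 tested genes of the Cyp3a subfamily, which oxidises steroids and many drugs, all fell from day 2 to day 4 (4.09% of all genes). They differed after that. Each of these day 2 to day 4 calls was lost with the hybridisation control level or the colon epithelium level as a covariate. Cyp3a13, a Cyp3a enzyme of the intestine, had day 0 signals of 3141, 3050, 3440, 3723 and 4333. The lowest, median and highest were 2590, 3499 and 4096 at day 2, 1209, 2306 and 2855 at day 4, and 1388, 1710 and 2751 at day 6. Days 4 and 6 each lay below day 0 without overlap, and the changes were -0.73 ± 0.20 (adjusted p = 0.0163) and -0.90 ± 0.20 (adjusted p = 0.0014). Without day 0 mouse 5 the adjusted p at day 4 was 0.0507. The fall from day 2 to day 4 was 0.69 ± 0.19 (adjusted p = 0.0229), a call lost without day 2 mouse 17 or day 4 mouse 1, 3 or 4 (adjusted p up to 0.0677).

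Cyp3a44 was dim, with day 0 signals of 80.7, 34, 54.9, 41.3 and 56.5. The lowest, median and highest were 29.5, 129 and 152 at day 2, 2.05, 16.1 and 39.9 at day 4, and 68.5, 89.2 and 162 at day 6. The day 4 mice lay below all day 6 mice. Cyp3a44 changed by -1.92 ± 0.32 from day 2 to day 4 (adjusted p = 0.00148) and by 1.81 ± 0.32 from day 4 to day 6 (adjusted p = 0.000233). Cyp3a44 was tested because it was higher on later days than at day 0, so its p-values are descriptions. Its day 4 change against day 0, -1.08 ± 0.33 (adjusted p = 0.0284), was lost when day 0 mouse 1, 3 or 5 or day 4 mouse 4 or 7 was left out (adjusted p up to 0.0791). Cyp3a25 changed 0.354-fold from day 2 to day 4 (SE 0.45 on the log2 scale, adjusted p = 0.0303), from a median of 327 to 87.1, a call lost without any of 9 arrays (day 2 mice 1, 7, 8, 17 and 52, day 4 mice 1, 3, 4 and 6; adjusted p up to 0.0852).

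Cyp2c65, an arachidonic acid epoxygenase, and Cyp4b1, an enzyme first studied in lung for activating plant toxins, also had their lowest day means at day 4. Cyp2c65 had day 0 signals of 5110, 3452, 4059, 4229 and 6334, and a lowest, median and highest of 2610, 6269 and 7543 at day 2, 2154, 2737 and 5192 at day 4, and 3200, 4986 and 9440 at day 6. It fell by 0.88 ± 0.27 from day 2 to day 4 (adjusted p = 0.0356) and rose by 0.81 ± 0.27 from day 4 to day 6 (adjusted p = 0.0342), with overlap at both steps. Leaving out 1 array ended the first call for 9 arrays (day 2 mice 1, 7, 8, 17 and 52, day 4 mice 1, 3, 4 and 6) and the second for 7 (day 4 mice 1, 3, 4 and 6, day 6 mice 1, 4 and 7), with adjusted p up to 0.0948 and 0.0967. Cyp4b1 had day 0 signals of 999, 712, 988, 932 and 967, and a lowest, median and highest of 573, 1288 and 1400 at day 2, 402, 559 and 855 at day 4, and 385, 724 and 1079 at day 6. It changed by -0.97 ± 0.22 from day 2 to day 4 (adjusted p = 0.0079), and by -0.68 ± 0.23 from day 0 to day 4 (adjusted p = 0.0438), the latter lost without any of 10 arrays (day 0 mice 1, 3, 4 and 5, day 2 mouse 1, day 4 mice 1, 3, 4, 6 and 7; adjusted p up to 0.0936).

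For Cyp3a44, Cyp3a25, Cyp2c65 and Cyp4b1 alike, day 2 mouse 6 was the lowest mouse of day 2, with signals of 29.5, 61.3, 2610 and 573. This array also held the highest pancreas marker level. Without the 4 arrays that stood apart for neighbouring tissue (day 2 mice 6 and 8, day 4 mouse 8, day 6 mouse 1), the day 2 to day 4 changes were -2.31 for Cyp3a44, -1.86 for Cyp3a25, -1.20 for Cyp2c65 and -1.25 for Cyp4b1, each larger than with all arrays. Slc10a2, the ileal bile acid transporter, fell by 1.44 ± 0.39 from day 0 to day 4 (adjusted p = 0.0128). Whether the piece of colon taken had a part in this was not tested.

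Cyp4v3 and Cyp2j9 had their highest day means at day 4, and only the rise of Cyp4v3 was followed by a fall that passed. Cyp4v3, the mouse form of a human fatty acid hydroxylase linked to a crystalline eye disease, had day 0 signals of 374, 400, 370, 390 and 337. The lowest, median and highest were 300, 369 and 549 at day 2, 523, 620 and 705 at day 4, and 398, 427 and 473 at day 6. The day 4 mice lay above all mice of day 0 and day 6 and overlapped day 2. Cyp4v3 rose by 0.69 ± 0.11 from day 0 to day 4 (adjusted p = 0.000476) and fell by 0.49 ± 0.11 to day 6 (adjusted p = 0.00228), and no single array decided these calls. Its other probe set, fitted on its own, did not pass at day 4 (0.26 ± 0.13, adjusted p = 0.167). Cyp2j9, of a subfamily that forms epoxides of arachidonic acid, rose by 0.62 ± 0.19 at day 4 (adjusted p = 0.0324), from 93.5 ± 17.6 (SD, n = 5) to 156 ± 52.5 (SD, n = 6). That call was lost when day 0 mouse 1, 3, 4 or 5 or day 4 mouse 1, 4 or 6 was left out (adjusted p up to 0.0871). Cyp2j9 was tested because it was higher after day 0, so its p-value is a description. Its difference from day 4 to day 6, -0.47 ± 0.19, did not pass (adjusted p = 0.0693). Cyp2j6 passed in no comparison, and its day means lay between 467 and 588.

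**Figure D3:**
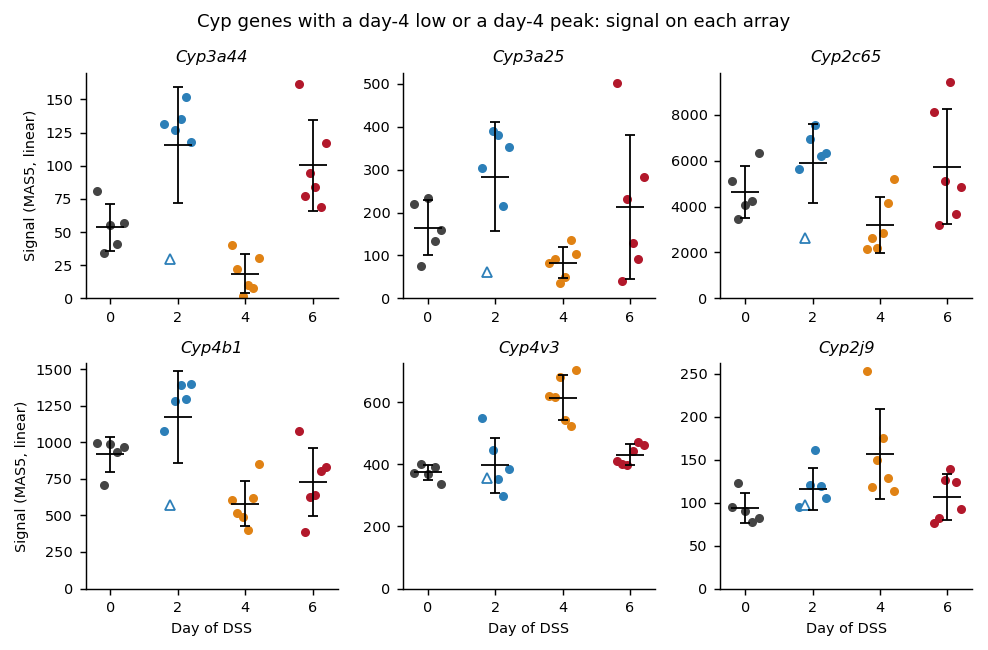
Signal on each array (y axis, linear MAS5 units) by day of DSS (x axis) for 4 Cyp genes with a low at day 4 and 2 with a high at day 4; points are mice, the open triangle is day 2 mouse 6, and bars with whiskers are the mean ± SD (5 mice at day 0, 6 at each later day). For Cyp3a44 the 6 day 4 mice lie between 2.05 and 39.9, below all day 6 mice, and for Cyp4v3 between 523 and 705, above all day 0 and day 6 mice.

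In family 4, where 7 genes were tested, 2 rose and 2 fell by day 6 (all genes: 18.1% and 14.3%). The Cyp4f genes, which inactivate leukotriene B4 and hydroxylate long fatty acids, went both ways. Cyp4f16 fell by day 4 and stayed low. Its day 0 signals were 1539, 1391, 1921, 1464 and 1437, and the lowest, median and highest were 1031, 1415 and 1553 at day 2, 709, 847 and 1097 at day 4, and 586, 840 and 1032 at day 6. Days 4 and 6 lay below day 0 without overlap, at -0.81 ± 0.14 (adjusted p = 0.000575) and -0.89 ± 0.14 (adjusted p = 3.71e-05). A probe set shared with Cyp4f37 had changes of -0.85 ± 0.10 and -0.86 ± 0.10, and another of Cyp4f16, of a kind prone to cross-hybridise, -0.24 ± 0.14 at day 4 (adjusted p = 0.239) and -0.47 ± 0.14 at day 6 (adjusted p = 0.0103). Cyp4f14 went from 1680 ± 259 (SD, n = 5) to 1185 ± 379 at day 4 and 1193 ± 429 at day 6 (SD, n = 6 each). It passed only from day 2 to day 4 (-0.67 ± 0.21, adjusted p = 0.0411). The call was lost without any of 8 arrays (day 2 mice 6, 7, 8, 17 and 52, day 4 mice 1, 3 and 4; adjusted p up to 0.124). Cyp4f13 fell by 0.39 ± 0.15 at day 6 (adjusted p = 0.0448), from 683 ± 113 (SD, n = 5) to 522 ± 106 (SD, n = 6), with overlap. This call was lost without any of 8 arrays (day 0 mouse 1, 2 or 5, day 2 mouse 7, day 4 mouse 3 or 6, day 6 mouse 4 or 21; adjusted p up to 0.131) and in the fit without a filter on low values.

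Cyp4f18, the leukotriene B4 hydroxylase of neutrophils, rose. Its day 0 signals were 42.6, 106, 120, 106 and 74.2, and the lowest, median and highest were 38.2, 127 and 166 at day 2, 103, 126 and 185 at day 4, and 148, 247 and 500 at day 6. The day 6 mice lay above all day 0 mice. Cyp4f18 changed by 1.55 ± 0.30 from day 0 to day 6 (adjusted p = 0.000397) and by 1.03 ± 0.29 from day 4 to day 6 (adjusted p = 0.0129). It was tested because it was higher after day 0, so these p-values are descriptions. The summed signal of the 3 neutrophil markers S100a8, S100a9 and Csf3r was 156 to 399 at day 0 and 1925 to 12205 at day 6, and none was at 0. Over the 6 mice of day 6, Cyp4f18 and the mean log2 level of these markers had r = 0.85 (exact permutation p = 0.0111, adjusted p = 0.05 over 24 within-day relations) and Spearman's rho = 0.77 (exact p = 0.103, adjusted p = 0.224). With the monocyte and macrophage markers, r over the same mice was 0.89 (exact permutation p = 0.0264, adjusted p = 0.0778) and rho was also 0.77. At days 2 and 4 r was 0.39 and 0.39 with the neutrophil markers and -0.16 and 0.24 with the monocyte and macrophage markers. With the neutrophil level as a covariate the day 6 change of Cyp4f18 was -0.53. The neutrophil level of every day 6 mouse lay above that of every mouse of the other days. This fit therefore cannot separate the day from the neutrophil level, and the part of neutrophils in the rise of Cyp4f18 was not tested.

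Cyp4f39, which makes the very long hydroxylated fatty acids of the skin barrier, rose by 0.84 ± 0.31 at day 6 (adjusted p = 0.0376), from 71.5 ± 12.8 (SD, n = 5) to 151 ± 64.2 (SD, n = 6), with overlap. The call was lost without day 0 mouse 1, 3 or 4 or day 6 mouse 3, 7, 21 or 29 (adjusted p up to 0.0979). Cyp4f39 was tested because it was higher after day 0, so its p-value is a description. Cyp2b19, an epoxygenase of skin keratinocytes, went from 68.6 ± 35.6 (SD, n = 5) to 125 ± 66.2 (SD, n = 6) by day 6 and passed in no comparison. Squamous markers moved with both: 7 of 17 rose by day 6, including the basal keratins Krt5 and Krt14, and their summed signal was 9807 to 17890 at day 0 and 29290 to 68542 at day 6, with none at 0. Within days 2, 4 and 6, the r with the squamous level was 0.93, 0.80 and 0.73 for Cyp4f39 (exact permutation p = 0.00833, 0.0708 and 0.0903; adjusted 0.05, 0.155 and 0.157) and 0.65, 0.88 and 0.75 for Cyp2b19 (exact permutation p = 0.0861, 0.0125 and 0.0917; adjusted 0.157, 0.05 and 0.157). Spearman's rho was 0.89, 0.60 and 0.77 for Cyp4f39 (adjusted exact p = 0.16, 0.363 and 0.224) and 0.71, 0.94 and 0.71 for Cyp2b19 (adjusted exact p = 0.251, 0.1 and 0.251). Mouse 8 of day 2 and mouse 8 of day 4 lay far below the others in squamous level, at a mean log2 of 5.78 (others 9.09 to 10.08) and 5.80 (others 10.01 to 10.48), and r was not taken over the 5 mice left without them. With the squamous level as a covariate the day 6 change of Cyp4f39 was 0.37.

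The largest rise from day 0 to day 6 among the tested P450 genes was that of Cyp1b1, an Ahr-inducible enzyme that oxidises estradiol and polycyclic hydrocarbons. Its day 0 signals were 54.1, 27.4, 63.3, 62.7 and 39.6, and the lowest, median and highest were 49.9, 70.4 and 126 at day 2, 60.5, 106 and 136 at day 4, and 108, 224 and 569 at day 6. Every day 6 mouse lay above every day 0 mouse. Cyp1b1 changed by 1.93 ± 0.31 from day 0 to day 6 (adjusted p = 5.18e-05) and by 1.05 ± 0.30 from day 4 to day 6 (adjusted p = 0.0135). No day 0 array of Cyp1b1 was above the array median. It was tested because it was higher later, so its rank, p-values and lack of overlap are descriptions. Cyp1a1 and Cyp1a2 were under the signal limit. Of 6 tested Ahr target genes outside the family, 3 rose by day 6 (18.1% of all genes), with the protease inhibitor Serpinb2 at 2.79 ± 0.63 (adjusted p = 0.00151), the amino acid transporter Slc7a5 at 0.84 ± 0.22 (adjusted p = 0.00505) and the ADP-ribosyltransferase Tiparp at 0.30 ± 0.09 (adjusted p = 0.0149). Arnt rose at day 4 (0.76 ± 0.18, adjusted p = 0.00527), as did the Ahr repressor Ahrr (0.57 ± 0.18, adjusted p = 0.0288), which then fell by 0.64 ± 0.17 from day 4 to day 6 (adjusted p = 0.00755).

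Cyp2e1, the oxidase of ethanol and acetone, varied widely between mice of the same day. Its day 0 signals were 290, 608, 406, 800 and 1902, and the lowest, median and highest were 90.6, 267 and 2524 at day 2, 38, 187 and 618 at day 4, and 248, 874 and 3240 at day 6. Cyp2e1 passed from day 4 to day 6 (2.14 ± 0.74, adjusted p = 0.0384), with overlapping mice, and the call was lost without day 4 mouse 1, 3, 7 or 8 or day 6 mouse 7, 21 or 29 (adjusted p up to 0.0981). Adipocyte markers (4 tested of 7: Adipoq, Cidec, Fabp4 and Retn) moved with it. Over the 23 mice the r of Cyp2e1 with their mean log2 level was 0.95 and Spearman's rho 0.97, each with a permutation p of 1e-05, the smallest that 100000 resamples can give (adjusted 1.6e-05 and 2.67e-05 over 8 relations). Without the 2 mice farthest from the median marker level r was 0.95. Within days 2, 4 and 6 it was 0.94, 0.98 and 0.95 (exact permutation p = 0.00694, 0.00417 and 0.0111, each 0.05 after adjustment). Cyp4b1, also set against these markers, had r = -0.06 over the 23 mice (permutation p = 0.791). Its r within days 2, 4 and 6 was -0.66, -0.43 and 0.44. The summed signal of the markers was 2817 to 7370 at day 4 and 3426 to 14120 at day 6, none was at 0, and 1 of 4, Cidec, rose between these days. With the adipocyte level as a covariate the change of Cyp2e1 was 0.37 ± 0.30 (adjusted p = 0.429).

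**Figure D4:**
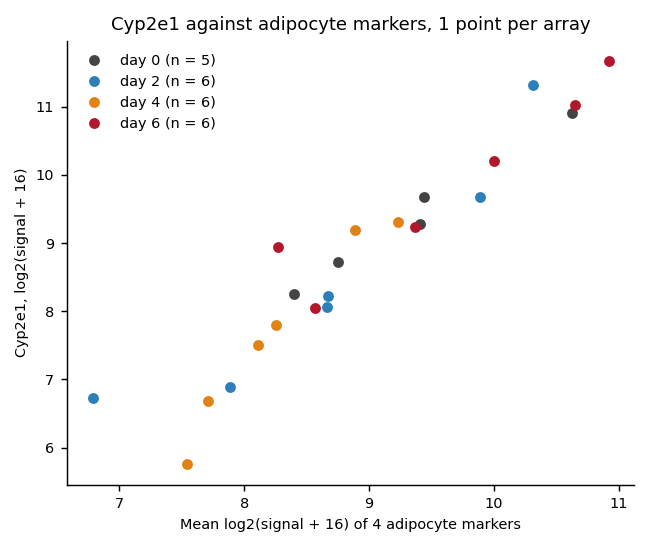
Level of Cyp2e1 (y axis) against the mean level of 4 adipocyte markers (x axis), both as log2(signal + 16), with 1 point per mouse coloured by day (5 mice at day 0, 6 at each later day). The points of all 4 days lie along a common rising trend (r = 0.95 over 23 mice).

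Of the sterol and bile acid genes, 4 were tested. Cyp7b1, an oxysterol hydroxylase of the alternative bile acid pathway, had day 0 signals of 149, 143, 130, 153 and 181. The lowest, median and highest were 115, 183 and 326 at day 2, 218, 274 and 317 at day 4, and 272, 541 and 930 at day 6. Days 4 and 6 lay above day 0 without overlap. The changes of Cyp7b1 were 0.78 ± 0.25 at day 4 (adjusted p = 0.0332) and 1.65 ± 0.25 at day 6 (adjusted p = 2.36e-05), and a second probe set gave 0.62 ± 0.25 (adjusted p = 0.0855) and 1.49 ± 0.25 (adjusted p = 8.1e-05). The day 4 call was lost without day 0 mouse 1, 2, 3 or 4 or day 4 mouse 1, 3 or 4 (adjusted p up to 0.076).

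Fibroblast markers moved with Cyp7b1 and Cyp1b1. Their summed signal (10 markers, none at 0) was 40626 to 50096 at day 0 and 59593 to 96462 at day 6. Within days 4 and 6 the r of Cyp7b1 with the fibroblast level was 0.90 and 0.91 (exact permutation p = 0.0222 and 0.0292, adjusted 0.0762 and 0.0778), and that of Cyp1b1 was 0.77 and 0.58 (exact permutation p = 0.0694 and 0.257, adjusted 0.155 and 0.385). At day 2 r was 0.40 for Cyp7b1 and -0.25 for Cyp1b1.

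**Figure D5:**
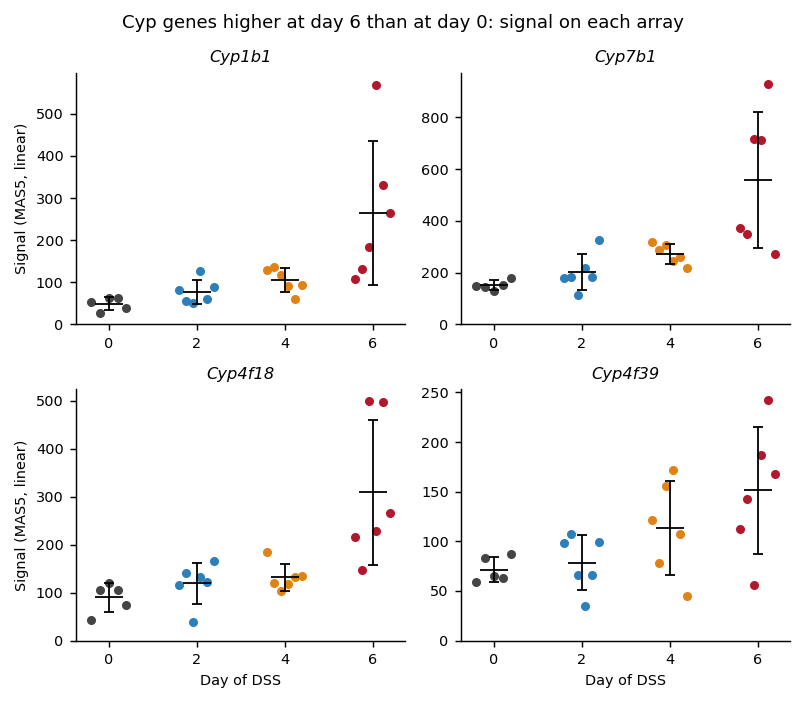
Signal on each array (y axis, linear MAS5 units) by day of DSS (x axis) for the 4 Cyp genes that rose from day 0 to day 6; points are mice, and bars with whiskers are the mean ± SD (5 mice at day 0, 6 at each later day). The day 6 mice of Cyp1b1, Cyp7b1 and Cyp4f18 all lie above the day 0 mice and spread widely, from 272 to 930 for Cyp7b1, while those of Cyp4f39 overlap day 0.

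Cyp39a1, which hydroxylates a brain-derived oxysterol, moved the other way. Its day 0 signals were 511, 628, 497, 565 and 618, and the lowest, median and highest were 348, 390 and 599 at day 2, 329, 525 and 594 at day 4, and 233, 295 and 344 at day 6. The day 6 mice lay below all day 0 mice. Cyp39a1 changed by -0.91 ± 0.15 from day 0 to day 6 (adjusted p = 5.12e-05) and by -0.73 ± 0.14 from day 4 to day 6 (adjusted p = 0.000621). Cyp27a1, the mitochondrial sterol hydroxylase, fell by 0.34 ± 0.12 from day 4 to day 6 (adjusted p = 0.0342), from 1162 ± 52.2 to 926 ± 180 (SD, n = 6 each), a call lost without day 4 mouse 3, 6 or 8 or day 6 mouse 1, 4 or 7 (adjusted p up to 0.0989). Cyp51, the lanosterol demethylase of cholesterol synthesis, passed in no comparison, with changes from day 0 of 0.14 ± 0.19, 0.01 ± 0.19 and 0.02 ± 0.19 at days 2, 4 and 6. Of 20 other genes of bile acid and sterol handling, 4 rose and 3 fell by day 6 (background 18.1% and 14.3%). They included Hsd11b1, which activates glucocorticoids, at 1.18 ± 0.21 (adjusted p = 0.000132) and the cholesterol exporter Abca1 at 0.86 ± 0.16 (adjusted p = 0.000229).

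The retinoic acid hydroxylase Cyp26b1 passed in no comparison. Its mean signal was 141 ± 10.7 (SD) in the 5 untreated mice and 170 ± 92.5 (SD) in the 6 mice of day 6, which ranged from 56.4 to 311. Of 20 retinoid enzymes and binding proteins, 4 rose by day 4 (12.1% of all genes), and 7 rose and 2 fell by day 6 (18.1% and 14.3% of all genes). The retinal dehydrogenases Aldh1a3 and Aldh1a2 rose by 2.10 ± 0.24 (adjusted p = 5.31e-07) and 1.28 ± 0.20 (adjusted p = 4.23e-05) at day 6, and the alcohol dehydrogenase Adh1 fell by 1.07 ± 0.19 (adjusted p = 0.000174). Cyp20a1, an orphan with no settled substrate, passed in no comparison, with day means between 952 and 1120.

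The electron donors of the enzymes changed by small amounts. By day 6, 18.1% of all genes had risen and 14.3% had fallen. Of 7 tested redox partners, 1 rose and 3 fell by day 6, among them Fdx1, which feeds the mitochondrial enzymes, at -0.28 ± 0.06 (adjusted p = 0.000522), and Cyb5b, at -0.25 ± 0.06 (adjusted p = 0.00174). Of 11 genes of heme supply and breakdown, 2 rose and 1 fell, and Hmox1, the heme-degrading oxygenase, rose by 1.72 ± 0.26 (adjusted p = 2.11e-05). Of 22 receptors and factors that control P450 genes, 2 rose and 7 fell by day 6. Cebpb, a factor of the acute phase response, rose by 1.41 ± 0.18 (adjusted p = 4.07e-06), and Foxa2, a factor of endodermal epithelium, fell by 1.32 ± 0.17 (adjusted p = 2.32e-06). Of 7 vitamin D response genes, 3 fell, among them the receptor Vdr at -0.76 ± 0.11 (adjusted p = 9.57e-06). The P450 relative Ptgis, the prostacyclin synthase, rose by 0.53 ± 0.11 at day 4 (adjusted p = 0.00262) and 0.68 ± 0.11 at day 6 (adjusted p = 6.29e-05).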

How the data were processed

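Total RNA from the colon of 23 mice was hybridised to Affymetrix mouse arrays, with a single array for each animal. Per the submitters' processing notes, the authors made the deposited signal intensity of each probe set with MAS5, on a linear scale; a version is not given in the sources used here. No pair of arrays held identical values. Precision is limited by how many arrays there were. Of 45101 probe sets, 64 controls were left out. The platform annotation, which can be old, gave 34957 probe sets 1 symbol, 920 several and 9160 none.

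Probe sets entered the tests when 5 or more arrays exceeded that array's own median (24627 probe sets, 12464 named genes), and the one with the highest mean stood for a gene. Of the member probe sets 44 were kept. Values were log2(signal + 16). The 4 days were fitted together in limma 3.58.1 (R 4.3.3; eBayes with trend), with 5 two-sided contrasts. The fit was tested on simulated data. Correlations used scipy 1.17.1 and promoter alignments biopython 1.88. Named members were the passing genes of a comparison (the 12 with the largest change where more passed), the highest of each subfamily and the kept sterol, retinoid and vitamin D genes, with up to 2 changed genes of each related list in each comparison; others named are given for their count or as examples, chosen after their values were seen. Members, lists, motifs and marker covariates were chosen with earlier results of these data known. Alternatives were the pseudocount, filter, probe set rule, normalization, trend, arrays in the fit, control and marker covariates, mouse number as a block, and leaving out arrays.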

Additional observations from a re-analysis of the deposited data

Results flagged for a closer look

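Single mice stood apart from the others of their day in 11 of 116 groups of 5 or 6 mice tested over the named members, where chance gives about 1 in 20. In all 11 the mouse was the lowest. Day 2 mouse 6 was apart for Cyp3a44 (29.5, others 118 to 152), Cyp3a25 (61.3, others 214 to 391), Cyp2c65 (2610, others 5635 to 7543) and Cyp4b1 (573, others 1078 to 1400). Day 2 mouse 8 was apart for Cyp2c68 (2809, others 3979 to 4499) and Cyp2f2 (401, others 694 to 826). Other such values were Cyp4f14 on day 2 mouse 1 (1233, others 1785 to 2103), Cyp4f18 on day 2 mouse 7 (38.2, others 115 to 166), Cyp4b1 on day 0 mouse 2 (712, others 932 to 999), Cyp39a1 on day 4 mouse 7 (329, others 494 to 594) and Cyp20a1 on day 6 mouse 3 (775, others 1100 to 1279).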

How the results depend on the processing

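Counts of P450 genes that passed stayed within 1.5 times their value with another pseudocount, filter, probe set rule, normalization, eBayes without trend, only the arrays of the 2 days compared, or a squamous or adipocyte covariate. Without the 4 arrays that stood apart for neighbouring tissue they were 10 at day 4, 16 at day 6 (each against day 0), 8 from day 2 to 4 and 11 from day 4 to 6. Of these arrays, day 2 mouse 6 and day 6 mouse 1 had high pancreas markers. Day 2 mouse 8 and day 4 mouse 8 had low squamous markers, and the arrays kept still held squamous signal. Other covariates lowered the counts of P450 genes. With hybridisation controls as covariate, 1 gene passed at day 4, 5 at day 6 and 0 from day 2 to 4. With colon epithelium markers, 2 passed at day 4 and 0 from day 2 to 4. With neutrophil markers, 3 passed at day 4, 0 at day 6 and 0 from day 4 to 6. With macrophage markers the counts were 2 at day 4, 0 at day 6, 4 from day 2 to 4 and 1 from day 4 to 6, and with fibroblast markers 1 at day 4, 1 at day 6 and 0 from day 2 to 4. The neutrophil and macrophage levels of every day 6 mouse lay above those of all other mice. The fibroblast and hybridisation control levels did not overlap between day 0 and days 4 or 6. These covariates stand largely for the day, so lost calls and turned signs in these fits cannot separate the day from the covariate. The cause was not tested. Changes turned sign with neutrophil markers for Cyp2d22 (0.0071), Cyp4f18 (-0.53), Cyp4f39 (-0.19) and Cyp4f13 (0.44) at day 6 and Cyp2s1 (0.029), Cyp4f18 (-0.67) and Cyp7b1 (-0.29) from day 4 to 6, and at day 6 for Cyp2d12 with macrophage (0.44) or fibroblast markers (0.43) and for Cyp4f13 with macrophage (0.31) or fibroblast markers (0.16). Leaving out each mouse in turn gave 0 to 0 genes at day 2, 3 to 8 at day 4 (lowest without day 0 mouse 1, 3 or 5 or day 4 mouse 4), 9 to 15 at day 6, 4 to 9 from day 2 to 4 (lowest without day 2 mouse 17 or day 4 mouse 1, 3 or 4) and 9 to 13 from day 4 to 6. Mouse numbers come from separate cohorts, so they were not used to pair the mice in the main fit. Deviations of 17 same-numbered pairs correlated at -0.16 to 0.70 (median 0.045). Those of 181 pairs with other numbers correlated at -0.50 to 0.38 (median 0.0013). These values cannot settle whether mice of the same number are related. With the number as replicate block 0, 7, 10, 1 and 10 genes passed at days 2, 4 and 6 against day 0, from day 2 to 4 and from day 4 to 6.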
